A study of Mus musculus with 8 samples.

Results

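The genes of the collagen alpha chains are described here in cholesterol-loaded mouse aortic smooth muscle cells that carried either a control adenovirus or an adenovirus labelled as overexpressing the transcription factor NFAT5. Members were all genes whose Entrez identifier maps to a symbol made of Col, a number, the letter a and a number. This rule gave 44 of the 24704 genes on the arrays: 11 chains of fibrillar collagens, 6 of basement membrane collagen, 9 of FACIT collagens (fibril-associated collagens with interrupted triple helices) and 18 of other types. They were sorted into these classes by chain type, and each had 1 probe set.

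Cells that received the AdPl virus made up the 4 control arrays, and cells that received AdN5, labelled as overexpressing NFAT5, made up the other 4. All 8 samples had 24 h of adenovirus and 72 h of cholesterol at 10 µg/ml, so cells without virus or without cholesterol are not part of the comparison. The labels name neither the insert of AdPl nor the promoter of the NFAT5 construct, and give no strain or age for the mice. They also leave unsaid whether the replicates are separate cultures, so p-values reflect the array-to-array spread alone, and that spread may be technical. The comparison asks what the virus labelled NFAT5 does to the collagen transcripts of cholesterol-exposed smooth muscle cells, and the number of arrays limits its precision.

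Collagens are trimers of alpha chains wound into a triple helix. Smooth muscle cells of the arterial wall lay down types I, III and V as striated fibrils that bear tension, type IV as a sheet-like basement membrane around each cell, type VI as beaded filaments between them, and type VIII as a short-chain network that is known to increase in injured arteries. FACIT chains sit on the surface of the fibrils. NFAT5, also called TonEBP, is the factor that turns on osmoprotective genes under hypertonic stress, and it is known to bind the tonicity-responsive element (TonE).

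Some facts of the whole series bear on every value. Pairs of arrays correlated at 0.990 to 0.993 across genes within groups and at 0.989 to 0.992 between groups. On the second principal component, which held 17.1% of the variance, NFAT5 replicate 4 (24.7) and control replicate 3 (14.2) had the highest scores and NFAT5 replicates 3 (-19.5) and 2 (-11.1) the lowest, while the other 4 arrays lay between -3.25 and 0.34. The Nfat5 transcript itself did not show the rise that the label implies. It read 6.97 ± 0.072 (SD, n = 4) in the arrays labelled NFAT5 and 7.16 ± 0.089 in the control arrays, with overlapping groups. The log2 fold change was -0.19 ± 0.078 (SE; limma adjusted p = 0.360, exact two-sided permutation p = 0.0571). The position of its probes is not given in the sources used here, so whether they read the viral transcript could not be checked. The arrays labelled NFAT5 are therefore called NFAT5-labelled, and each direction below rests on the labels. Over all 24704 genes limma called 0.777% at an adjusted p under 0.05. An unadjusted p under 0.05 was found for 3097 of them, and 49.0% had values below 0. Of the 12266 genes above the median probe set of an array (3.76 on the log2 scale), 2140 had an unadjusted p under 0.05. Of 8 smooth muscle markers 0 were called by limma (2 at an unadjusted p under 0.05), 5 had values above 0 and 7 lay above the median probe set. Acta2 (12.04 in the control and 11.74 in the NFAT5-labelled arrays, adjusted p = 0.113) lay entirely below the controls, and Cnn1 (6.27 and 6.60, adjusted p = 0.296) and Cald1 (10.04 and 10.12) entirely above. Myocd (3.30 in the control arrays) was below the median probe set. Of 12 macrophage markers all 12 had fold changes above 0 and 3 were called. In the 8 fits that each left out 1 array, Adgre1 was called in 8, Laptm5 in 1 and Cd68 in 0. The mean log2 level of the macrophage list ran from 5.38 to 5.56 in the control and from 5.75 to 5.92 in the NFAT5-labelled arrays. Of 12 fibroblast or adventitial markers 9 were lower and 1 was called, Ly6c1 (log2 fold change -1.24). Its mean over the arrays lay below the median probe set, and it was called in 1 of those 8 fits. An unadjusted p under 0.05 was found for 6 of the 12, all lower, and 3 of the 12 had values above 0. Groups did not overlap for 5 of the 12 (41.7%), all lower, against 4.56% of all genes. Besides Ly6c1 these were Cd34 (-0.53), Lum (-0.45), Dpt (-0.35) and Fbln1 (-0.22), which lay above the median probe set. The list mean, which includes Ly6c1, ran from 5.89 to 5.92 in the control and from 5.53 to 5.67 in the NFAT5-labelled arrays. Fewer cells of a type and less RNA per cell cannot be told apart in such bulk samples, and the part of either marker list in the collagen values was not tested.

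Among the 44 collagen chain genes 2 fell in the NFAT5-labelled cells and 0 rose at a Benjamini-Hochberg adjusted p under 0.05 (limma, adjusted over all genes). The background for such calls was 0.777% of all genes, 0.413% for genes that fell and 0.364% for genes that rose. The 2 genes were Col28a1, encoding the chain of type XXVIII collagen, and Col4a5, encoding a chain of basement membrane type IV collagen. A further group of collagen genes was lower in every NFAT5-labelled array than in any control array without passing the adjusted test. In all, 10 of the 44 genes (22.7%) had NFAT5-labelled values entirely below the control values, against a background of 4.56% of all genes, and 1, Col5a3, had values entirely above, against 4.22%. These 11 genes all had mean levels above the median probe set, where the shares were 7.68% and 6.82% of all genes and 32.3% of the 31 collagen genes for the lower direction. Control replicate 3 and NFAT5 replicate 4 were the 2 arrays at the upper end of the second principal component. Without them 11 of the 44 lay entirely below and 2 entirely above, against 9.36% and 9.08% of all genes. The 10 lower genes over all arrays were Col1a1, Col3a1, Col5a2 and Col11a1 of the fibrillar class, Col4a5, the FACIT gene Col14a1, and Col6a1, Col6a2, Col8a1 and Col28a1. Of these, Col1a1, Col3a1, Col5a2, Col8a1 and Col14a1 had mean levels above those of at least 97.1% of all genes. The share of genes without overlap at such levels was not computed, so the backgrounds are not matched in level.

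The class as a whole moved little. The median log2 fold change of the 44 genes was -0.061, and that of all genes was 0.0042. Values below 0 were found for 26 of the 44 (59.1%), against 49.0% of all genes. Leaving out NFAT5 replicate 2 brought the collagen median to -0.0011 and left 22 values below 0. Among genes whose mean lay above the median of all genes, limma called 5 collagen genes (background 4.02%), and with a variance trend and robust estimation it called 8 of the 44 (background 3.16%), all of them lower. The median was -0.092 over the 31 collagen genes above the median probe set and 0.0078 over the 13 at or below it, where RMA compresses differences. By class the medians were -0.030 for fibrillar, 0.062 for basement membrane, -0.074 for FACIT and -0.11 for other chains.

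**Figure D1:**
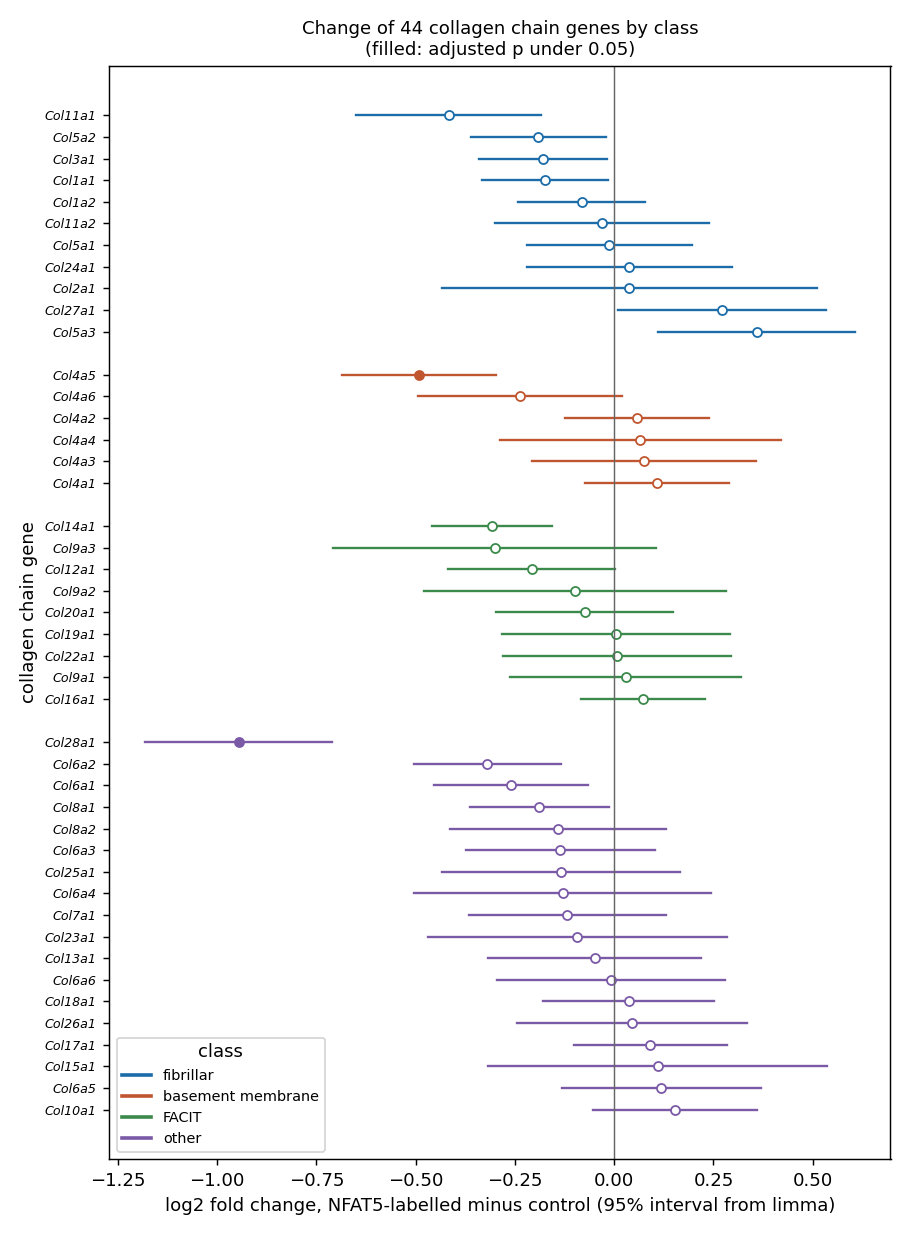
Log2 fold change (NFAT5-labelled minus control) of the 44 collagen chain genes on the horizontal axis, sorted within their class, with the 95% interval from limma as a line. Filled points mark the 2 genes past an adjusted p of 0.05, Col4a5 and Col28a1, and the interval of Col28a1 lies apart from those of the other chains of its class.

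Col28a1 showed the lowest value of all collagen chains. Type XXVIII is a collagen with von Willebrand factor A domains, best known from the basement membranes around glial cells of peripheral nerve. The control arrays read 6.63, 6.61, 6.61 and 6.77 on the log2 scale, and the NFAT5-labelled arrays read 5.60, 5.95, 5.50 and 5.78. Every NFAT5-labelled array thus lay far below every control array, and the spread among the NFAT5-labelled arrays (SD 0.198) was wider than among the controls (0.0747). The log2 fold change was -0.95 ± 0.11 (SE; 95% interval -1.18 to -0.71; limma adjusted p = 0.00656), which puts the level at 51.9% of the control. The gene was called in all 8 fits that left out an array (adjusted p from 0.00508 to 0.0352). Without both control replicate 3 and NFAT5 replicate 4 the adjusted p was 0.0686. Of 7 measured markers of Schwann cells, listed after the values were seen, 0 passed limma. An unadjusted p under 0.05 was found for 2, S100b (log2 fold change -0.27) and Egr2 (0.35), against 3097 of all 24704 genes. The glial regulator Sox10 was at 0.20, S100b was the 1 marker with a value below 0, and 4 of the 7 lay at or below the median probe set. The list mean ran from 3.46 to 3.70 in the control and from 3.55 to 3.72 in the NFAT5-labelled arrays, and its part in the Col28a1 value was not tested.

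The fibrillar class holds the chains of the striated fibrils, and 0 of its 11 genes passed the adjusted test, while 6 had an unadjusted p under 0.05. The background for the latter was 3097 of all 24704 genes, and 2140 of the 12266 above the median probe set. Col1a1 encodes the major chain of type I collagen. Its control arrays read 12.139, 12.104, 11.998 and 12.104, and its NFAT5-labelled arrays read 11.93, 11.93, 11.96 and 11.84. The groups did not overlap, but the gap between the nearest arrays was small, and the log2 fold change of -0.17 ± 0.071 (SE) had a limma adjusted p of 0.354. Col1a2, the partner chain in the same trimer, read 11.22, 11.22, 11.09 and 11.15 in the control and 11.10, 11.13, 11.11 and 11.01 in the NFAT5-labelled arrays. These groups overlapped, and the log2 fold change was -0.082 ± 0.071. Col3a1, the chain of type III collagen, which forms mixed fibrils with type I in distensible vessels, read 11.49, 11.49, 11.37 and 11.53 in the control and 11.33, 11.30, 11.32 and 11.21 in the NFAT5-labelled arrays. All 4 NFAT5-labelled values lay below the controls, with a log2 fold change of -0.18 ± 0.072 and an adjusted p of 0.345.

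Type V collagen lies within type I fibrils and governs their diameter. The log2 fold changes of its chains lay on both sides of 0, and none passed the adjusted test. Col5a2 read 9.34, 9.27, 9.26 and 9.35 in the control and 9.15, 9.19, 9.15 and 8.98 in the NFAT5-labelled arrays, without overlap (log2 fold change -0.19 ± 0.076, limma adjusted p = 0.337). Col5a3, a type V chain of more restricted distribution, read 5.32, 5.65, 5.67 and 5.59 in the control and 5.77, 5.92, 6.14 and 5.84 in the NFAT5-labelled arrays. Here every NFAT5-labelled array lay above every control array, the reverse of Col5a2, with a log2 fold change of 0.36 ± 0.11 and an adjusted p of 0.217. Col5a1, the most widespread chain of the type, was at -0.013. Col11a1 encodes a chain of type XI, which nucleates thin fibrils in cartilage and joins type V chains elsewhere. It read 5.98, 5.93, 5.67 and 5.95 in the control and 5.39, 5.54, 5.64 and 5.30 in the NFAT5-labelled arrays. The groups came close at control replicate 3 and NFAT5 replicate 3 without overlapping, and the log2 fold change was -0.42 ± 0.10 (limma adjusted p = 0.130). Col27a1, a fibrillar chain of growing cartilage, read 4.37, 4.26, 4.51 and 4.58 in the control and 4.70, 4.45, 4.71 and 4.95 in the NFAT5-labelled arrays. Its groups overlapped at NFAT5 replicate 2, and the log2 fold change of 0.27 ± 0.12 did not pass (adjusted p = 0.378). The other 4 fibrillar genes, Col5a1, Col11a2, Col24a1 and Col2a1, the main collagen of cartilage, had log2 fold changes between -0.030 and 0.039.

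Chains of types I, III and V often had the same lowest array in a group. For Col1a1, Col1a2, Col3a1, Col5a1 and Col5a2, NFAT5 replicate 4 was the lowest NFAT5-labelled array in all 5, and control replicate 3 the lowest control array in 4 of 5, Col5a1 being the exception. Col5a3, left out of these 5, was lowest in control replicate 1 and NFAT5 replicate 1. The pattern was not particular to these types. Over all 44 collagen genes control replicate 3 was the lowest control array in 16 and NFAT5 replicate 4 the lowest NFAT5-labelled array in 16. Both were the most frequent of their group, and over the 11 fibrillar genes the counts were 5 and 7. Control replicate 3 and NFAT5 replicate 4 are the 2 arrays with the highest scores on the second principal component. Without these 2 the log2 fold changes were -0.18 for Col1a1, -0.18 for Col3a1 and -0.16 for Col5a2, and their adjusted p-values from limma were 0.448, 0.432 and 0.497.

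**Figure D2:**
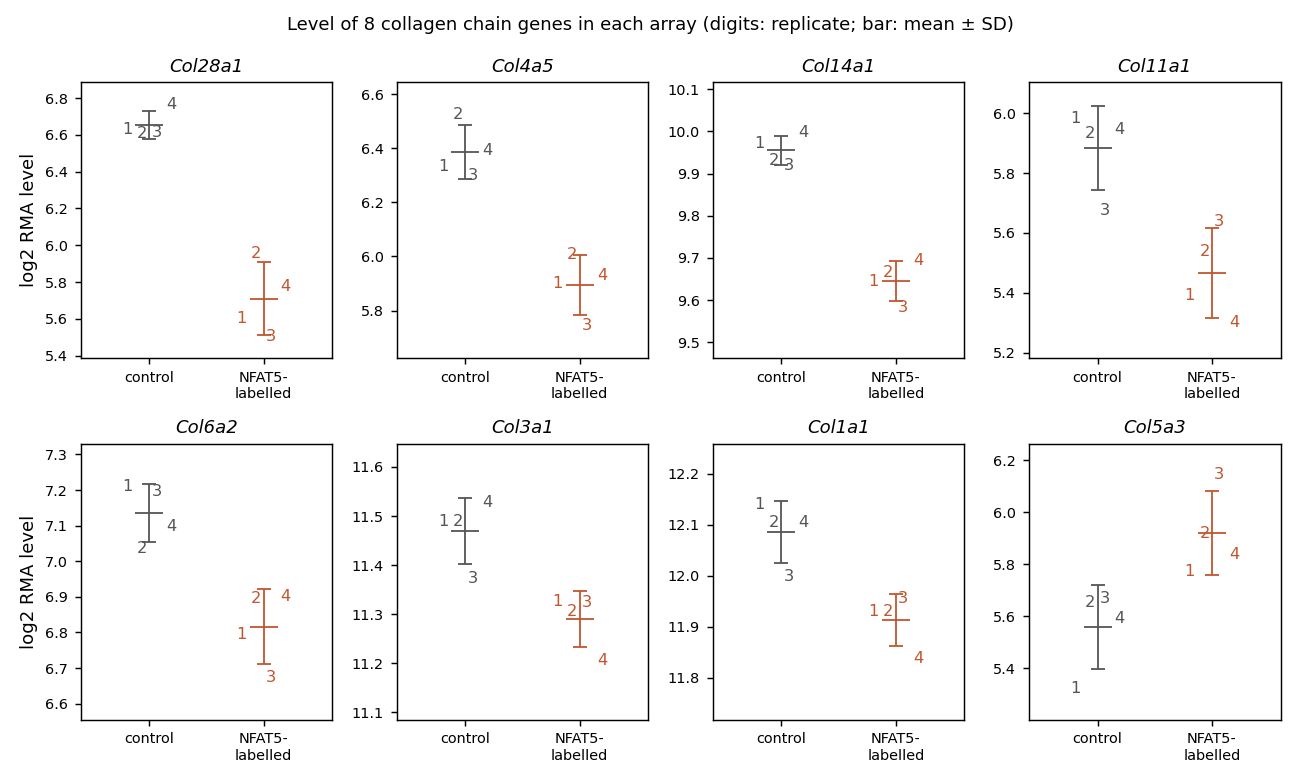
Log2 RMA level on the vertical axis of 8 collagen chain genes in the control and NFAT5-labelled arrays, each panel with its own range; digits give the replicate and bars the mean ± SD of 4 arrays. The groups do not overlap in any of the 8 panels, Col5a3 is the panel with the NFAT5-labelled arrays on top, and Col28a1 shows the widest gap.

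The basement membrane class holds the 6 chains of type IV collagen, whose genes lie in head-to-head pairs in the genome, Col4a1 with Col4a2, Col4a3 with Col4a4 and Col4a5 with Col4a6. The chains alpha 1 and alpha 2 make the network found under nearly all cells, and alpha 5 and alpha 6 make a network known from smooth muscle; loss of alpha 5 causes X-linked Alport syndrome. Col4a5 read 6.33, 6.52, 6.30 and 6.39 in the control and 5.90, 6.01, 5.74 and 5.93 in the NFAT5-labelled arrays. All 4 NFAT5-labelled arrays lay below the controls, and the gene fell by 0.49 ± 0.086 (SE) on the log2 scale to 71.2% of the control level (95% interval of the log2 fold change -0.68 to -0.30; limma adjusted p = 0.0392). This call was lost in each of the 8 fits that left out an array, with adjusted p-values from 0.0733 to 0.125. Its neighbour Col4a6 read 3.43, 3.59, 3.74 and 3.79 in the control and 3.26, 3.51, 3.59 and 3.24 in the NFAT5-labelled arrays. This probe set lay near or below the median probe set, its groups overlapped, and the log2 fold change was -0.24 ± 0.11 (adjusted p = 0.445).

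The pair of the widespread network gave values on the other side of 0. Col4a1 read 7.60, 7.55, 7.40 and 7.44 in the control and 7.72, 7.60, 7.58 and 7.52 in the NFAT5-labelled arrays, a log2 fold change of 0.11 ± 0.081 (limma adjusted p = 0.650). Col4a2 read 7.75, 7.70, 7.61 and 7.63 in the control and 7.87, 7.67, 7.76 and 7.63 in the NFAT5-labelled arrays, a log2 fold change of 0.057 ± 0.081. Both pairs of groups overlapped. Col4a3, a chain of kidney and lung basement membranes, was dim at 3.01, 2.73, 2.89 and 2.67 in the control and 3.00, 2.88, 3.12 and 2.60 in the NFAT5-labelled arrays, and its partner Col4a4 was at 0.066.

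Sequences at the starts of the 2 genes that fell are shown because NFAT5 is a DNA-binding factor, with Col4a6, the neighbour of Col4a5, and Col4a1, a type IV chain that was not called. The windows are RefSeq's for GRCm38.p6, from 250 bases before to 50 bases after the start of a RefSeq transcript, printed on the strand of the gene; capitals mark GGAAA, the core shared by NFAT sites, or its reverse complement. They lie at chr6:8192568-8192867 (minus strand) for Col28a1, chrX:141475169-141475468 (plus strand) for Col4a5, chrX:141474027-141474326 (minus strand) for Col4a6 and chr8:11312777-11313076 (minus strand) for Col4a1. The start used for Col28a1 lies 1092 bases inside the gene as RefSeq spans it, so a longer transcript begins further out, and the starts used for the others lie 19 to 63 bases inside.
Col28a1: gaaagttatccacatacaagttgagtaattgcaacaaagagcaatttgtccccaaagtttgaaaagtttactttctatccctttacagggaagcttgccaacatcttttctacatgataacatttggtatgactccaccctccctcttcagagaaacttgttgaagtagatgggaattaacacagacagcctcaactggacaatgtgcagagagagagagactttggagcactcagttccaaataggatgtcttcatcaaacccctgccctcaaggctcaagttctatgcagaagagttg
Col4a5: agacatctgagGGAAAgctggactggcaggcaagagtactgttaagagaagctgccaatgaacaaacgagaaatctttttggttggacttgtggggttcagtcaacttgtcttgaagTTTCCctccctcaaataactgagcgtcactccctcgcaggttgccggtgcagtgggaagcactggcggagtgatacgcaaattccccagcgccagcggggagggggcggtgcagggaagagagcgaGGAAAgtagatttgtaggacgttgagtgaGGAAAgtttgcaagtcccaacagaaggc
Col4a6: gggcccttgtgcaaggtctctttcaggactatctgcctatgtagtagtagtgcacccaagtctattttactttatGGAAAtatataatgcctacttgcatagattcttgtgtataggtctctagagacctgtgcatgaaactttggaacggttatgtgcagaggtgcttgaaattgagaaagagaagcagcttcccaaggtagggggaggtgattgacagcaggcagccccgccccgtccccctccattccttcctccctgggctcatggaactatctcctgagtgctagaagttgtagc
Col4a1: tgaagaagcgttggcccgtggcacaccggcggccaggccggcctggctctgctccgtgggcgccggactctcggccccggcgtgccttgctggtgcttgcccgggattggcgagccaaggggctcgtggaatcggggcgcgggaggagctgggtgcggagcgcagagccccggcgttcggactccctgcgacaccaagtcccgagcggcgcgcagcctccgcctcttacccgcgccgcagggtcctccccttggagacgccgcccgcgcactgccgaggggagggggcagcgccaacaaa
The starts used for Col4a1 and Col4a2 are 21 bases apart and those of Col4a5 and Col4a6 1343 bases apart. Of the 44 genes 35 had a window in the table, 38 windows in all. GGAAA was found on either strand in 22 of the 38 (57.9%), against 61.3% of all 32851 windows. Its extension TGGAAA was in 5 (13.2%), against 21.4%, and the full TonE consensus, which contains both, was in 1 (2.63%), the window of Col4a6, against 4.96%. The window of Col4a5 held 4 matches of GGAAA and those of Col28a1 and Col4a1 held 0. A match is a run of letters and not a bound site, and windows of 300 bases leave out distant elements.

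FACIT chains decorate the fibrils, and 0 of the 9 genes passed the adjusted test. An unadjusted p under 0.05 was found for 1 of the 9, against 3097 of all 24704 genes. That FACIT gene was Col14a1, whose chain binds type I fibrils and limits their growth. It read 9.97, 9.93, 9.92 and 10.00 in the control and 9.64, 9.67, 9.58 and 9.69 in the NFAT5-labelled arrays. Both groups were tight and well separated, at 9.95 ± 0.035 and 9.65 ± 0.047 (SD, n = 4), with a log2 fold change of -0.31 ± 0.067 (SE; limma adjusted p = 0.0897). Col12a1, the related chain of tissues under tension, read 9.72, 9.92, 9.62 and 9.84 in the control and 9.73, 9.52, 9.53 and 9.49 in the NFAT5-labelled arrays. NFAT5 replicate 1 sat among the controls and the other NFAT5-labelled arrays below them, and the log2 fold change was -0.21 ± 0.094 (adjusted p = 0.407).

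The remaining FACIT genes varied without a group pattern. Col9a3, a chain of the type IX collagen of cartilage, read 3.89, 3.92, 3.76 and 3.83 in the control and 3.92, 3.08, 3.30 and 3.90 in the NFAT5-labelled arrays. Its NFAT5-labelled arrays split, with replicates 2 and 3 below the controls and replicates 1 and 4 at their level, and the log2 fold change was -0.30 ± 0.18 (limma adjusted p = 0.557). Its partner Col9a2 read 5.97, 5.48, 6.16 and 6.06 in the control and 6.08, 5.48, 5.81 and 5.91 in the NFAT5-labelled arrays, with the replicate numbered 2 lowest in both groups, and was at -0.099. Col9a1, the remaining chain of the trimer, read 3.68, 3.80, 3.78 and 3.59 in the control and 3.76, 3.68, 3.44 and 4.09 in the NFAT5-labelled arrays, on both sides of the controls, and was at 0.029. Col16a1, a chain associated with microfibrils, read 5.89, 5.92, 5.93 and 5.86 in the control and 5.94, 5.97, 6.07 and 5.91 in the NFAT5-labelled arrays. It had the highest value of the class at 0.073 ± 0.070, with overlapping groups. The other 3, Col19a1, Col20a1 and Col22a1, lay between -0.074 and 0.0078. In the same arrays cartilage markers outside the collagens showed no called gene: of 10 markers 8 were lower, 0 passed limma (0 at an unadjusted p under 0.05), and 8 lay below the median probe set.

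Among the other types the 3 chains that make up the common type VI trimer had values below 0. Type VI filaments link basement membranes to the fibrils. Col6a2 read 7.21, 7.04, 7.20 and 7.10 in the control and 6.79, 6.89, 6.67 and 6.90 in the NFAT5-labelled arrays, without overlap (log2 fold change -0.32 ± 0.083, limma adjusted p = 0.147). Col6a1, which lies next to it in the genome, read 8.39, 8.35, 8.33 and 8.50 in the control and 8.27, 8.21, 8.05 and 8.01 in the NFAT5-labelled arrays, also without overlap (-0.26 ± 0.087, adjusted p = 0.254). The third chain, Col6a3, was at -0.14 ± 0.11 with overlapping groups. Of the longer type VI chains, Col6a4 was at -0.13, Col6a5, which read 2.89, 2.72, 3.03 and 2.56 in the control and 2.76, 2.99, 3.00 and 2.93 in the NFAT5-labelled arrays, at 0.12, and Col6a6 at -0.0078. These last chains were dim.

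Col8a1, the chain of the short-chain network of injured vessels, read 9.37, 9.26, 9.14 and 9.19 in the control and 9.10, 9.08, 8.96 and 9.06 in the NFAT5-labelled arrays. The groups did not overlap, with a log2 fold change of -0.19 ± 0.078 (limma adjusted p = 0.359). Its partner Col8a2 was dim and at -0.14. Col10a1, the related chain of hypertrophic cartilage, read 2.92, 2.95, 2.97 and 2.87 in the control and 3.23, 3.15, 2.85 and 3.09 in the NFAT5-labelled arrays. NFAT5 replicate 3 lay below all controls and the other NFAT5-labelled arrays above them, and the log2 fold change of 0.15 ± 0.092 was the highest of the class. Col7a1, the anchoring fibril chain of skin, was at -0.12. The multiplexins Col15a1 and Col18a1, the source of endostatin, were at 0.11 and 0.036. The membrane-spanning chains Col13a1, Col17a1, Col23a1 and Col25a1 lay between -0.13 and 0.091, and Col26a1 was at 0.045. Over the class as a whole 12 of 18 values (66.7%) were below 0, against 49.0% of all genes.

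**Figure D3:**
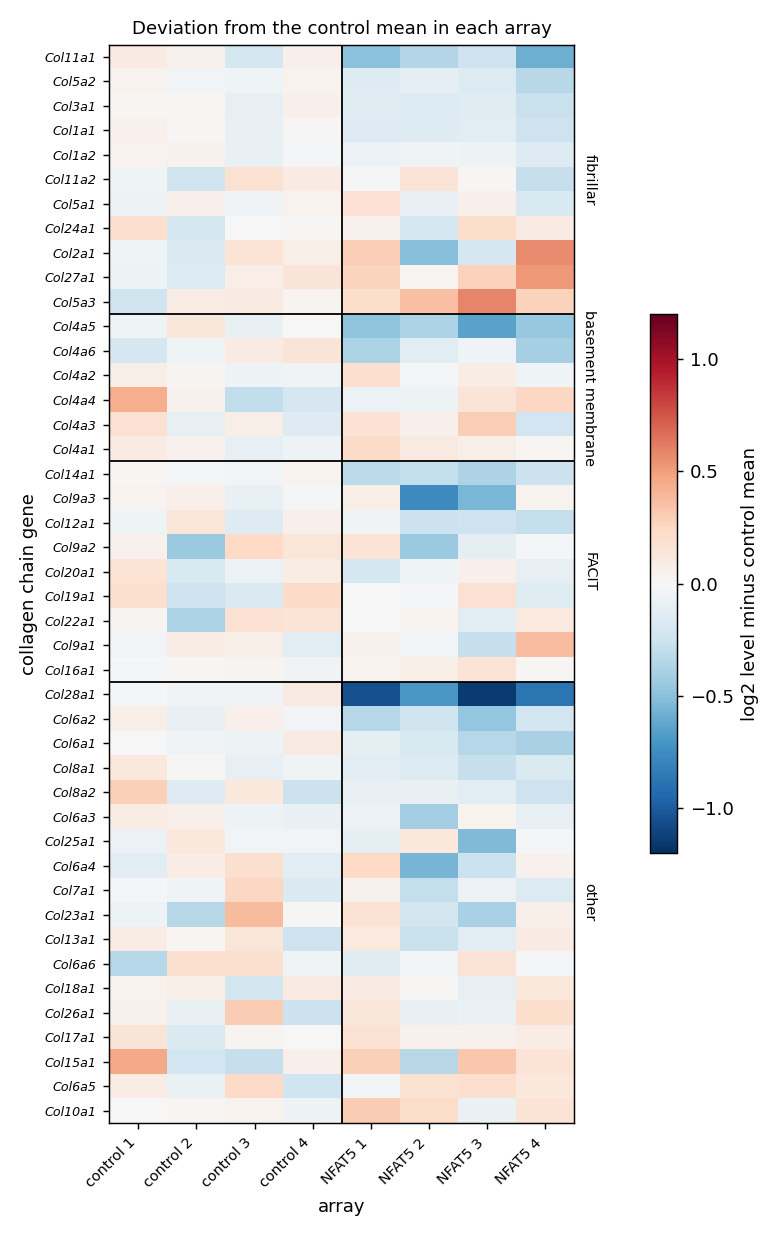
Log2 level of each of the 44 collagen chain genes (rows, sorted by log2 fold change within the class) in each array (columns), as the difference from the gene's control mean. Blue, for lower, fills all 4 NFAT5-labelled columns for the 10 lower genes without overlap and for Col1a2, Col4a6, Col8a2 and Col12a1, while Col5a3, Col4a1, Col16a1, Col17a1 and Col27a1 are red in all 4 and the other rows change colour.

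Whether chains of a trimer or neighbouring genes moved apart was tested on their difference within each array, for 8 pairs listed after the values were seen. The smallest p that 4 against 4 arrays allow is 0.0286, and 0 of the 8 pairs passed after adjustment over the pairs. Pairs at this smallest p had an adjusted p of 0.0762, so that 0 says little. The pairs were picked with the values known, so their p-values are descriptive and support no difference between chains. The difference between Col4a5 and Col4a1 changed by -0.60 without overlap of the groups (exact two-sided permutation p = 0.0286, adjusted 0.0762). For Col5a3 against Col5a2 the change was 0.55 and for Col1a1 against Col1a2 it was -0.091, both without overlap and with the same p-values. Col5a1 changed by 0.18 against Col5a2 (exact permutation p = 0.0571, adjusted 0.114). The changes of Col4a5 against Col4a6 (-0.25), Col4a1 against Col4a2 (0.051), Col6a1 against Col6a2 (0.060) and Col6a2 against Col6a3 (-0.18) lay within overlapping groups, with exact permutation p-values of 0.200, 0.143, 0.600 and 0.314.

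The genes that make, export, cross-link, bind and cleave collagen did not pass the adjusted test. Of 76 listed genes 73 were measured, and 0 were called by limma, while 19 had an unadjusted p under 0.05, 10 of them lower. The background for an unadjusted p under 0.05 was 3097 of all 24704 genes, and 2140 of the 12266 above the median probe set. The median log2 fold change of the 73 genes was -0.0015. Groups did not overlap for 23 (31.5%), against 8.78% of all genes and 14.5% of those above the median probe set, where 58 of the 73 lay. Of these 23, 12 were lower and 11 higher. Among the enzymes that modify prolines and lysines (15 genes, median 0.029), P3h2, a prolyl 3-hydroxylase that acts on type IV collagen, was the lowest. It read 5.10, 5.36, 5.07 and 5.72 in the control and 4.87, 4.56, 4.56 and 4.74 in the NFAT5-labelled arrays, without overlap (log2 fold change -0.63 ± 0.15, adjusted p = 0.108). Colgalt2, a dim galactosyltransferase gene, was at 0.19. Folding and export genes (11 genes, median -0.036) ran from Tmem38b, a calcium-release partner channel of the endoplasmic reticulum, at -0.19 to Mia3, the receptor that loads procollagen into carriers, at 0.19. Propeptide cleavage (9 genes, median 0.041) ran from the tolloid gene Tll1 at -0.25 to Bmp1, the procollagen C-proteinase, at 0.17.

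The lists that act on finished collagen spread to both sides. Of the 5 lysyl oxidase genes 4 were above 0 (median 0.16), from Loxl4 at -0.23 to Loxl2 at 0.17, against 12608 of all 24704 genes. Groups did not overlap for 2 of the 5 (40.0%), against 8.78% of all genes and 14.5% of those above the median probe set. These were Lox (0.16, limma adjusted p = 0.385) and Loxl1 (0.17, adjusted p = 0.390), both higher. Among receptors and uptake genes (10 genes, median 0.022), Itga1, the integrin alpha 1 chain, was at -0.28 and Mrc2, the receptor that takes up collagen fragments, was at 0.34 ± 0.079 (limma adjusted p = 0.108). Cleavage genes (7 genes, median -0.0015) ran from Ctsk, encoding the collagenolytic cathepsin K, at -0.30 to the dim gelatinase gene Mmp9 at 0.31. Groups did not overlap for Ctsk (limma adjusted p = 0.129) and did for Mmp9 (adjusted p = 0.468). The brighter Mmp2 was also at 0.31, without overlap (adjusted p = 0.0947). Partners of type IV collagen in the basement membrane (16 genes, median -0.052) ran from the dim laminin gene Lamb3 at -0.38 to Nid1, whose product bridges laminin and type IV collagen. Nid1 read 9.28, 9.47, 9.26 and 9.33 in the control and 9.83, 9.68, 9.89 and 9.58 in the NFAT5-labelled arrays, all of them above the controls (0.41 ± 0.093, adjusted p = 0.0993).

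**Figure D4:**
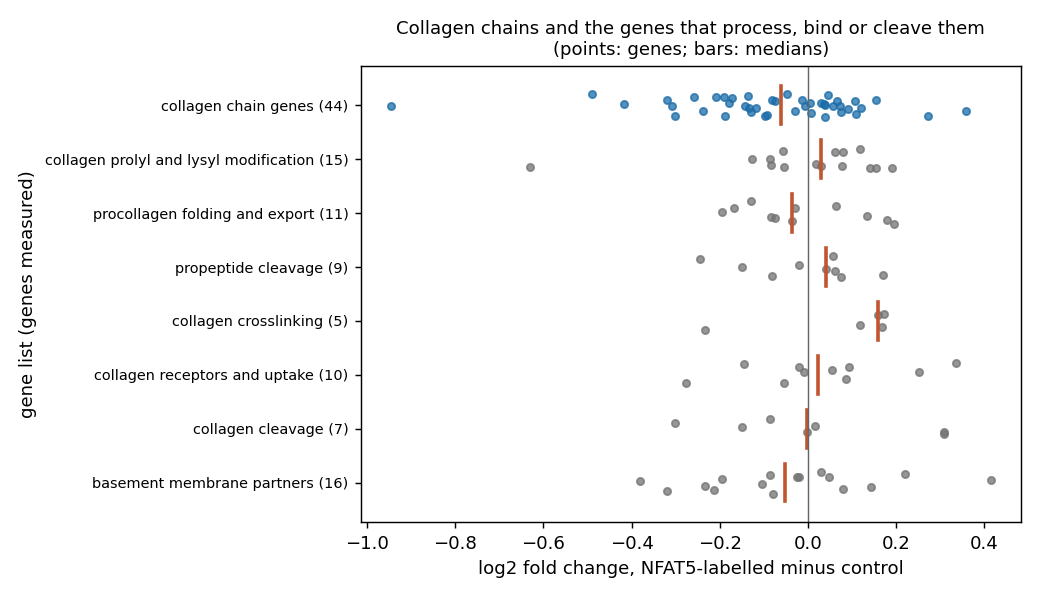
Log2 fold change (NFAT5-labelled minus control) on the horizontal axis of the 44 collagen chain genes and of 7 lists of genes that modify, export, trim, cross-link, bind, cleave or accompany them; points are genes, bars are medians, and points are scattered vertically only to separate them. The collagen medians and those of most lists lie near 0 (-0.061 for collagens), the cross-linking list has the highest median (0.16), and Col28a1 is the lowest point.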

How the data were processed

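Affymetrix single-colour arrays measured total RNA of 8 samples of mouse smooth muscle cells. The authors deposited log2 values; the submitters' processing notes name RMA without a version. RMA corrects background, quantile normalises arrays and compresses differences of dim genes. Once sorted, 7 arrays held the same values and the other differed by at most 0.00183, so a shift of all genes one way cannot be seen.

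Of 25428 probe sets 24705 had 1 symbol in the platform table, 0 had several and 723 were unlisted; the brighter probe set was kept for 1 shared symbol, leaving 24704 genes. Entrez identifiers of 24673 probe sets matched RefSeq's table for GRCm38.p6, with 0 symbols changed. Groups came from the sample titles. The test over all genes was a two-sided fit without covariates by limma 3.58.1 (lmFit, then eBayes; R 4.3.3), with Benjamini-Hochberg adjustment over all genes, and single values were compared by exact permutation over the 70 assignments of arrays. The scripts were tested on simulated data. Python 3.11.15 and matplotlib 3.10.9 drew the figures.

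The collagen genes and the lists were chosen with earlier results of these data known. Named with array values were called members and, in each class, the 2 highest and 2 lowest by log2 fold change and the 3 brightest in the control arrays. From each pathway list the called genes and both ends were named, with array values for P3h2 and Nid1 alone. Other genes named were chosen after their values were seen. Of 10 endothelial markers limma called 0, with 2 at an unadjusted p under 0.05 (3097 of all 24704 genes) and 7 lower values (49.0% of all genes). Other settings tried were median centring, a block for the replicate number, 2 filters on dim genes, all probe sets, trend with robust variance, array weights, a threshold of 0.01, and arrays left out.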

Additional observations from a re-analysis of the deposited data

Results flagged for a closer look

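In 4 of the 48 groups of 4 arrays behind the named collagen genes, 1 array lay far from the other 3; chance alone gives about 1 in 20. Col11a1 in control replicate 3 read 5.674 against 5.932 to 5.983 in the other controls. Col12a1 in NFAT5 replicate 1 read 9.732 against 9.486 to 9.527. Col28a1 in control replicate 4 read 6.766 against 6.609 to 6.632. Col3a1 in NFAT5 replicate 4 read 11.205 against 11.305 to 11.325.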

How the results depend on the processing

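The count of called collagen genes moved from 2 to 0 with the replicate block, to 5 among genes above the median of expression, to 8 with a variance trend and robust estimation, to 1 at an adjusted p under 0.01 and to 0 without control replicate 3 and NFAT5 replicate 4, an alternative chosen after seeing the data. Every collagen gene called under these settings was lower in the NFAT5-labelled arrays. The 5 genes above the median (background 4.02%) were Col28a1, Col4a5, Col14a1, Col11a1 and Col6a2, and the 8 (background 3.16%) added Col1a1, Col3a1 and Col6a1. Leaving out any single array left 1 (lowest 1, highest 1), Col28a1. Over all genes the count of 192 moved to 14 with the replicate block, 497 above the median, 781 with trend and robust estimation, 42 at 0.01, 30 without the 2 arrays, and from 56 to 88 without single arrays. The 0 pathway genes became 6 above the median (Ctsk, Lamb2 and P3h2 lower; Mmp2, Mrc2 and Nid1 higher) and 11 with trend and robust estimation (4 lower, 7 higher). The cause of these moves was not tested. Deviations of same-numbered arrays from their group means correlated at -0.0795 to 0.0547, on both sides of 0, and 2 of 4 control arrays correlated best with their own number. The highest correlation, 0.148, was between control replicate 3 and NFAT5 replicate 4. The labels do not say what a replicate number stands for, so whether the arrays are paired by it stays unknown. With the block Col28a1 had a limma adjusted p of 0.0643 and Col4a5 of 0.115. The collagen median lay between -0.095 and -0.0011 without single arrays. Dim probe sets limit what can be seen for 13 of the 44 genes.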
